A study of Mus musculus with 14 samples.

Results

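The sirtuins, the NAD-making enzyme Nampt and the NAD-using enzyme Parp1 were followed in 4 mouse MIN6 lines with altered Sirt1. MIN6 is an insulin-secreting line from a mouse insulinoma. Members were all probes whose single platform gene symbol, updated through its Entrez identifier, was Sirt1, Sirt2, Sirt3, Sirt4, Sirt5, Sirt6, Nampt or Parp1. Of 23232 probes, 8 met this rule, 1 for each gene, so 8 genes are described out of 15099 with a singly named probe. All 8 had values on all 14 arrays and were among the 23230 probes tested. Sirt7 had no probe of a single symbol and was not analysed here.

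Sirtuins remove acetyl and related groups from proteins and split NAD each time they do so, which ties their activity to the cell's NAD supply. SIRT1 and SIRT6 act mainly in the nucleus, SIRT2 mainly in the cytosol, and SIRT3, SIRT4 and SIRT5 in mitochondria. NAMPT makes the precursor of NAD from nicotinamide, the product that sirtuins release, and PARP1 spends NAD on poly-ADP-ribose chains at damaged DNA. In beta cells SIRT1 is known for supporting glucose-stimulated insulin secretion and SIRT4 for restraining amino acid-stimulated secretion through glutamate dehydrogenase.

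The lines Sir2OE1 (3 arrays) and Sir2OE2 (4 arrays) had been infected with the pBabe-Sirt1 retrovirus, which carries mouse Sirt1 and a neomycin resistance gene, and selected in 280 micrograms of G418 per ml. Their reference was pooled RNA of Neo1 and Neo2, lines that received the pBabe-neo retrovirus. The lines Sir2KD1 (3 arrays) and Sir2KD2 (4 arrays) had received mU6pro vectors for 2 different small interfering RNAs against Sirt1 together with a neomycin resistance plasmid, and 400 micrograms of G418 per ml. Their reference was the line mU6pro, made with that vector. MIN6 was at passage 24 when obtained, and all lines grew in 5 mM glucose for 4 days before RNA was taken. Each line is 1 selected line, lines of a kind share their reference RNA, and slides of a line are not described as separate cultures. The p-values therefore reflect only how arrays within lines differ, possibly for technical reasons, and leave out the spread of the reference lines. The spread between arrays was estimated for each probe over all 4 lines together. The SE and p-value of 1 line thus also depend on arrays of the other lines. The question was whether the other sirtuins and the NAD enzymes differ from the reference when Sirt1 is altered.

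Each array gave 1 log2 ratio per probe between its channels, so the data hold no levels, and genes cannot be ranked by abundance. The line lay in channel 2 on 7 arrays and in channel 1 on 7. Ratios of arrays with the line in channel 1 were multiplied by -1, which puts the line on the same side throughout. This turn is an assumption: as deposited, arrays of a line with opposite channels had a mean r of -0.281 over 12 pairs and arrays with the same channel 0.125 over 6 pairs. Each probe was centred over 6 arrays of a kind, which by itself gives a mean r of about -0.2 between them. Within those 6 arrays the means were -0.312 over 10 opposite pairs and 0.069 over 4 pairs of 1 channel. These values do not settle the turn, since a channel effect and a turned ratio cannot be told apart from them. The sources used here do not say which channel is on top of the ratio. Plus and minus therefore name sides, and neither side is known to mean more RNA in the modified line. Statements that set an overexpressing line against a knockdown line also assume that both kinds have 1 channel on top.

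No member passed the test in any line. Limma values were adjusted by the Benjamini-Hochberg method over all probes, and an adjusted p under 0.05 is named a call. The members had 0 calls in 32 line tests, 2 of them (6.25%) at an unadjusted p under 0.05, Sirt1 and Sirt3 in Sir2OE2, beside 13.2% of line tests over all probes. Over all probes the share called was 1.06% in Sir2OE1, 2.81% in Sir2OE2, 3.59% in Sir2KD1 and 1.34% in Sir2KD2, so a count of 0 among 8 members is near the background in each line. The median member ratio was 0.11 in Sir2OE1, -0.083 in Sir2OE2, 0.004 in Sir2KD1 and 0.043 in Sir2KD2, beside -0.002, -0.004, 0.024 and -0.003 over all probes. The arrays bounded many of these ratios closely. The 95% interval lay within 1.5-fold either way in 21 of 32 tests and within 2-fold in 29.

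**Figure D1:**
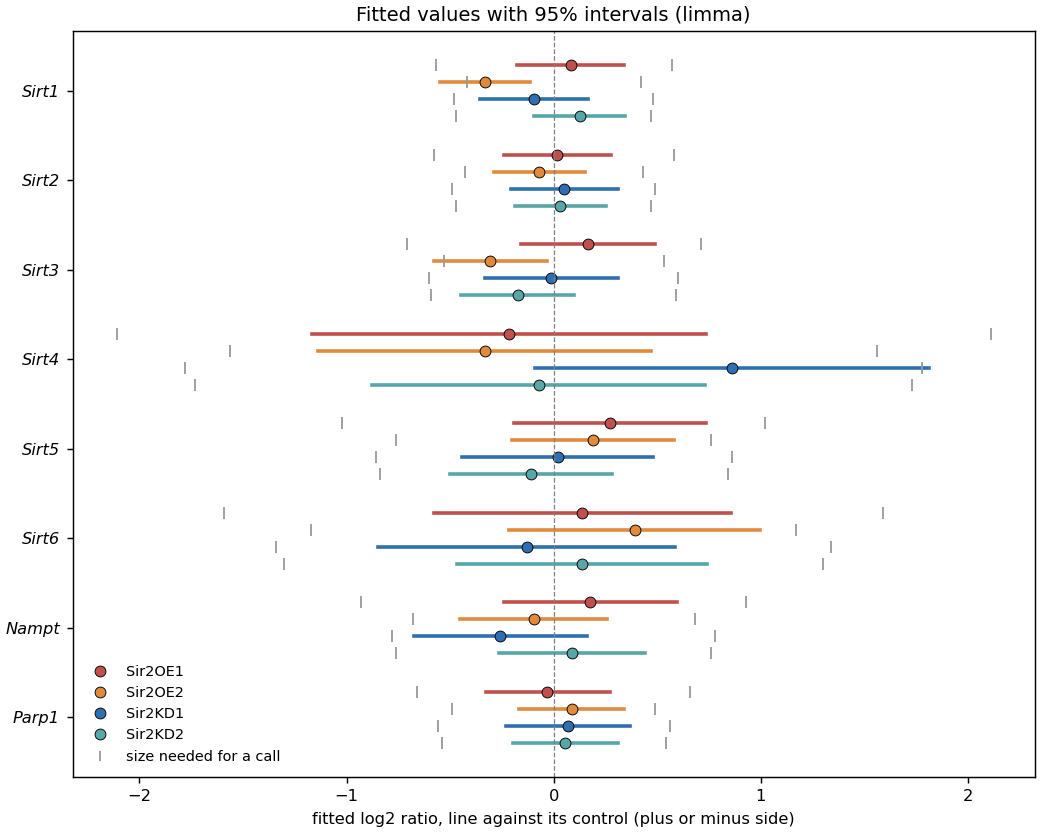
Fitted log2 ratio of each member in each line against its reference (dots) with the 95% interval from limma (lines); grey ticks mark the size at which a probe of that spread would be called. No dot lies beyond its ticks, and Sirt1 and Sirt3 in Sir2OE2 have intervals that leave out 0.

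Sirt1, the altered gene, differed little between each line and its reference, and its fitted ratios had opposite signs in the 2 lines of each kind, with intervals that include 0 in all lines but Sir2OE2. In Sir2OE1 its log2 ratios on slides 1 to 3 were -0.079, 0.21 and 0.13, and in Sir2OE2 on slides 1 to 4 they were -0.20, -0.36, -0.28 and -0.49. All 4 Sir2OE2 arrays were on the minus side and below every Sir2OE1 array. In Sir2KD1 the ratios were -0.12, -0.21 and 0.027, and in Sir2KD2 they were 0.22, 0.10, 0.10 and 0.073. All 4 Sir2KD2 arrays were on the plus side and above every Sir2KD1 array. How many of all probes lie on 1 side or separate in this way was not counted, here or for the genes below. The Sirt1 probe had a narrow spread between arrays, so these ratios are small and repeatable. Repeatable ratios do not show how well the probe follows Sirt1 RNA, which was not tested.

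The fitted Sirt1 ratio was 0.08 ± 0.12 (SE, n = 3) in Sir2OE1, with an interval from 0.885 to 1.27 on the fold scale. In Sir2OE2 it was -0.33 ± 0.10 (SE, n = 4), from 0.682 to 0.924 fold, with limma's adjusted p = 0.131 and an unadjusted p = 0.00665. This was the lowest adjusted p of any member. In Sir2KD1 the ratio was -0.10 ± 0.12 (0.783 to 1.12 fold, limma's adjusted p = 0.772) and in Sir2KD2 0.12 ± 0.10 (0.937 to 1.27 fold, limma's adjusted p = 0.651). A call would have needed a ratio of 1.34-fold in Sir2OE2 and 1.49-fold in Sir2OE1.

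Whether the Sirt1 value in Sir2OE2 counted as a call turned on the model. Without a channel offset it was -0.33 with limma's adjusted p = 0.0372, and with arrays weighted by their quality it was -0.29 with adjusted p = 0.0138. With the deposited values left unturned and no channel offset it was 0.052. Arrays of opposite channels then enter with opposite signs, and each probe is centred over them. That fit therefore cannot show whether the value depends on the turn. Where the Sirt1 probe lies relative to the transgene and to the sequences that the small interfering RNAs target was not stated, and the probe neither checks the labels nor settles which side means more RNA.

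**Figure D2:**
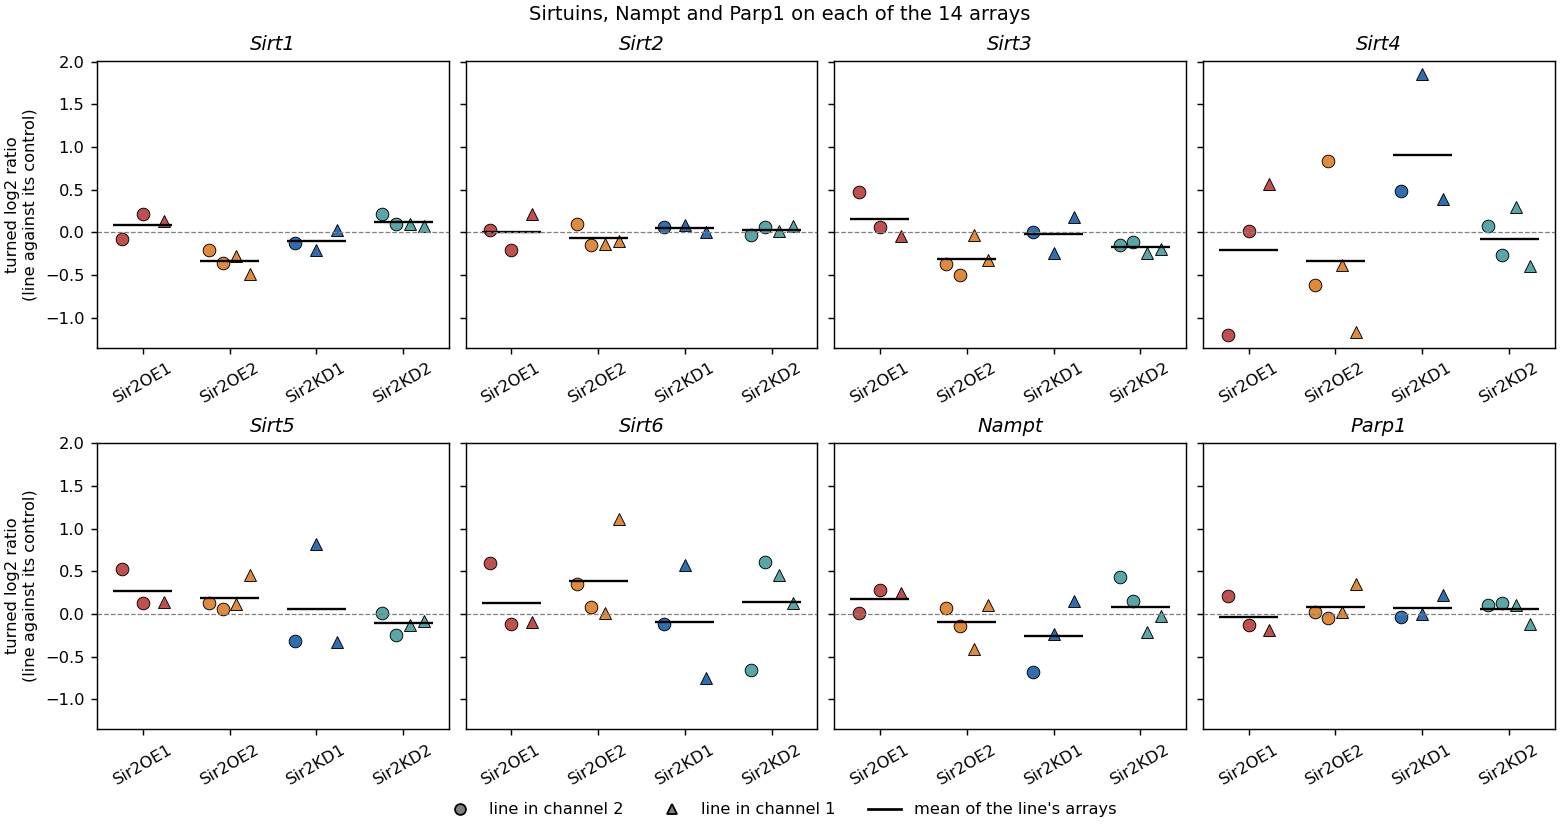
Turned log2 ratio of the 8 members on each of the 14 arrays, by line; circles are arrays with the line in channel 2, triangles arrays with the line in channel 1, and bars the mean of the line's arrays. Sirt1 stays between -0.49 and 0.22 on all arrays, while Sirt4 runs from -1.20 in Sir2OE1 to 1.86 in Sir2KD1.

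The promoter windows of Sirt1, Nampt and Parp1 are shown because these 3 genes form the core of the NAD circuit and because the circadian factor Clock, whose protein binds the E-box CACGTG, was among the regulators measured. Clock is also 1 of the regulators with a call, given below, and no other regulator was looked at in this way. Windows are from RefSeq on GRCm38.p6, 250 bases before to 50 after the start site, 5′ to 3′ on the gene's strand, with CACGTG in capitals. The motif reads the same on both strands. All 8 members matched a window, 10 windows in all. The windows shown are chr10:63338986-63339285 on the minus strand for Sirt1, chr12:32820085-32820384 on the plus strand for Nampt and chr1:180568641-180568940 on the plus strand for Parp1.
Sirt1: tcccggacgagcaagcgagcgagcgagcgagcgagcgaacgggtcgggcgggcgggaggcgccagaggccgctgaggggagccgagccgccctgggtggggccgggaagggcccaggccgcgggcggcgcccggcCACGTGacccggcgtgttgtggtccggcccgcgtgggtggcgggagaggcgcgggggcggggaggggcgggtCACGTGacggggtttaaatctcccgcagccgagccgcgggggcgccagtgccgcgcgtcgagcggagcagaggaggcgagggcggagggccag
Nampt: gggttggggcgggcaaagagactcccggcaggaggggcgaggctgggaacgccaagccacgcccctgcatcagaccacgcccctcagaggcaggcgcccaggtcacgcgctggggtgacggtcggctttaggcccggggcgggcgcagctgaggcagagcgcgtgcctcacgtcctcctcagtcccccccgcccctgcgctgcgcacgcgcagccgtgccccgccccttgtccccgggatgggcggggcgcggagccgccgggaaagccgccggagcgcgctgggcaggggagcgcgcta
Parp1: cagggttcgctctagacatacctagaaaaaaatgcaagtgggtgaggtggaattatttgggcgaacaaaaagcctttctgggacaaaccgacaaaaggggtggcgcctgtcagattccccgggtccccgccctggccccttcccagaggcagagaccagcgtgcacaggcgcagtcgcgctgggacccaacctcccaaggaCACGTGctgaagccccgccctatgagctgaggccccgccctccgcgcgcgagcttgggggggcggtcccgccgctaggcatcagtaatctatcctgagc
Sirt1 held 2 matches, which begin at -115 and -43 relative to the start site, and Parp1 held 1, which begins at -49. These letters are not in the Nampt window or in those of the other 5 members. Over all 32851 windows of this length, 7.15% held at least 1 match and 0.594% held 2 or more. A match describes the sequence and is no evidence that a factor binds there.

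Sirt2, the mainly cytosolic deacetylase known for acting on tubulin, was nearly level in every line. Its ratios were 0.022, -0.21 and 0.21 in Sir2OE1 and 0.098, -0.14, -0.13 and -0.098 in Sir2OE2. In the knockdown lines they were 0.065, 0.091 and 0.0038 in Sir2KD1 and -0.032, 0.065, 0.018 and 0.076 in Sir2KD2. The arrays of the lines overlapped, and both overexpressing lines had arrays on either side of 0. The 4 fitted ratios ran from -0.069 in Sir2OE2 to 0.052 in Sir2KD1, and their intervals lay between 0.818 and 1.24 fold.

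Sirt6, a chromatin-bound deacetylase known for its part in DNA repair and in glycolytic gene control, varied widely between arrays of a line. Its ratios were 0.59, -0.12 and -0.095 in Sir2OE1 and 0.36, 0.082, 0.0082 and 1.12 in Sir2OE2. The Sir2OE2 arrays were all on the plus side, with slide 4 far above the others. In Sir2KD1 the ratios were -0.12, 0.58 and -0.76, and in Sir2KD2 they were -0.65, 0.61, 0.46 and 0.13. Both knockdown lines had arrays well to either side of 0. The fitted value in Sir2OE2, 0.39 ± 0.27 (SE, n = 4), had an interval from 0.862 to 2.00 fold and limma's adjusted p = 0.65, and fell to 0.104 without slide 4. In the other lines the fitted ratios were 0.14 in Sir2OE1, -0.13 in Sir2KD1 and 0.14 in Sir2KD2.

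Of the mitochondrial sirtuins, Sirt3 came nearest to the test. Sirt3 encodes the main mitochondrial deacetylase. Its ratios were 0.47, 0.058 and -0.045 in Sir2OE1 and -0.37, -0.50, -0.032 and -0.32 in Sir2OE2. All 4 Sir2OE2 arrays were on the minus side, with slide 3 near 0 and overlapping the lowest Sir2OE1 array. In the knockdown lines the ratios were 0.0003, -0.24 and 0.18 in Sir2KD1 and -0.15, -0.12, -0.24 and -0.19 in Sir2KD2. The Sir2KD2 arrays were again all on the minus side and lay close together. The fitted ratio was -0.31 ± 0.12 (SE, n = 4) in Sir2OE2, from 0.67 to 0.977 fold, with limma's adjusted p = 0.315 and an unadjusted p = 0.031. It was 0.17 ± 0.15 (SE, n = 3) in Sir2OE1, -0.011 ± 0.15 in Sir2KD1 and -0.17 ± 0.12 in Sir2KD2.

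Sirt4, whose protein is an ADP-ribosyltransferase and lipoamidase that restrains glutamate dehydrogenase, was the noisiest member. Its ratios were -1.20, 0.015 and 0.57 in Sir2OE1 and -0.61, 0.83, -0.39 and -1.16 in Sir2OE2. Both overexpressing lines spread over more than 1 log2 unit on arrays of 1 line. In Sir2KD1 the ratios were 0.48, 1.86 and 0.39, all on the plus side, and in Sir2KD2 they were 0.079, -0.27, 0.30 and -0.39. The 3 Sir2KD1 arrays lay above all 4 Sir2KD2 arrays, with slide 2 far above the rest. The fitted value in Sir2KD1 was 0.86 ± 0.43 (SE, n = 3), from 0.939 to 3.51 fold, with limma's adjusted p = 0.357. Without slide 2 it was 0.434. For this probe a line would have needed a ratio of 2.95-fold to 4.31-fold to be called, so a smaller ratio could not be called with this number of arrays.

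Sirt5, whose protein removes succinyl and malonyl groups from mitochondrial enzymes, was on the plus side on all 7 overexpression arrays without passing the test. Its ratios were 0.53, 0.13 and 0.14 in Sir2OE1 and 0.13, 0.058, 0.12 and 0.46 in Sir2OE2. Slide 1 of Sir2OE1 and slide 4 of Sir2OE2 were the high arrays, and the lines overlapped. In the knockdown lines the ratios were -0.32, 0.82 and -0.33 in Sir2KD1 and 0.017, -0.25, -0.13 and -0.086 in Sir2KD2. Slide 2 of Sir2KD1 was on the plus side and its other slides on the minus side. The fitted ratios were 0.27 ± 0.21 (SE, n = 3) in Sir2OE1, where limma's adjusted p was 0.813, and in Sir2OE2 0.19 ± 0.18 (SE, n = 4), where it was 0.771. The knockdown ratios were 0.02 in Sir2KD1, which became -0.324 without slide 2, and -0.11 in Sir2KD2.

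Nampt, the rate-limiting enzyme of NAD salvage from nicotinamide, showed no ratio beyond the spread between arrays. Its ratios were 0.013, 0.28 and 0.25 in Sir2OE1, all on the plus side, and 0.068, -0.14, -0.41 and 0.10 in Sir2OE2, on both sides. In Sir2KD1 they were -0.68, -0.24 and 0.15, and in Sir2KD2 they were 0.44, 0.16, -0.21 and -0.028. The lines of each kind overlapped. The fitted ratios were 0.18 ± 0.19 (SE, n = 3) for Sir2OE1 and -0.097 ± 0.16 (SE, n = 4) for Sir2OE2. In the knockdown lines they were -0.26 ± 0.19 (SE, n = 3) for Sir2KD1 and 0.088 ± 0.16 (SE, n = 4) for Sir2KD2. The ratio furthest from 0 was that of Sir2KD1, from 0.626 to 1.12 fold, with limma's adjusted p = 0.562. The Sir2KD1 value changed side, to 0.164, without slide 1 of that line.

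Parp1, the main DNA-damage poly-ADP-ribose polymerase, was level within close bounds. Its ratios were 0.21, -0.13 and -0.19 in Sir2OE1 and 0.024, -0.050, 0.020 and 0.35 in Sir2OE2. In the knockdown lines they were -0.029, 0.001 and 0.23 in Sir2KD1 and 0.11, 0.13, 0.10 and -0.12 in Sir2KD2. All arrays lay between -0.19 and 0.35, and the lines overlapped. The fitted ratios were -0.03 in Sir2OE1, 0.087 in Sir2OE2, 0.069 in Sir2KD1 and 0.055 in Sir2KD2. The interval stayed between 0.796 and 1.29 fold in all 4 lines.

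Differences between lines and between kinds were tested too. Of 24 member tests of a difference 0 were called, and 2 had an unadjusted p under 0.05, both for Sir2OE1 minus Sir2OE2, where 7.48% of all probes did. These were Sirt1, at 0.41 ± 0.15 (1.05 to 1.69 fold, limma's adjusted p = 0.504), and Sirt3, at 0.47 ± 0.19 (1.04 to 1.86 fold, limma's adjusted p = 0.584). Over all probes this comparison called 0.323%. For Sir2KD1 minus Sir2KD2, which called 0.689% of all probes, the member differences ran from -0.35 for Nampt to 0.93 for Sirt4. That of Sirt1 was -0.22 ± 0.15, with limma's adjusted p = 0.637. For overexpression minus knockdown, which called 2.66% of all probes, they ran from -0.67 for Sirt4 to 0.28 for Sirt5. Sirt1 was at -0.14 ± 0.11 there, from 0.769 to 1.07 fold, with limma's adjusted p = 0.619.

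The members differed mainly in how repeatable they were. The moderated SD between arrays of a line, on the log2 scale, was 0.198 for Sirt1 and 0.199 for Sirt2, wider than that of only 2.57% and 2.78% of all probes. Parp1 (0.229) and Sirt3 (0.246) were also below the all-probe median of 0.374, as were Nampt (0.319) and Sirt5 (0.353). Sirt6 (0.547) was above it and Sirt4, at 0.726, was wider than 87.2% of probes. Signal over background is not known from ratios, and its part in these spreads was not tested. The spread sets what could be seen: over the 32 line tests the ratio needed for a call ran from 1.34-fold for Sirt1 to 4.31-fold for Sirt4.

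**Figure D3:**
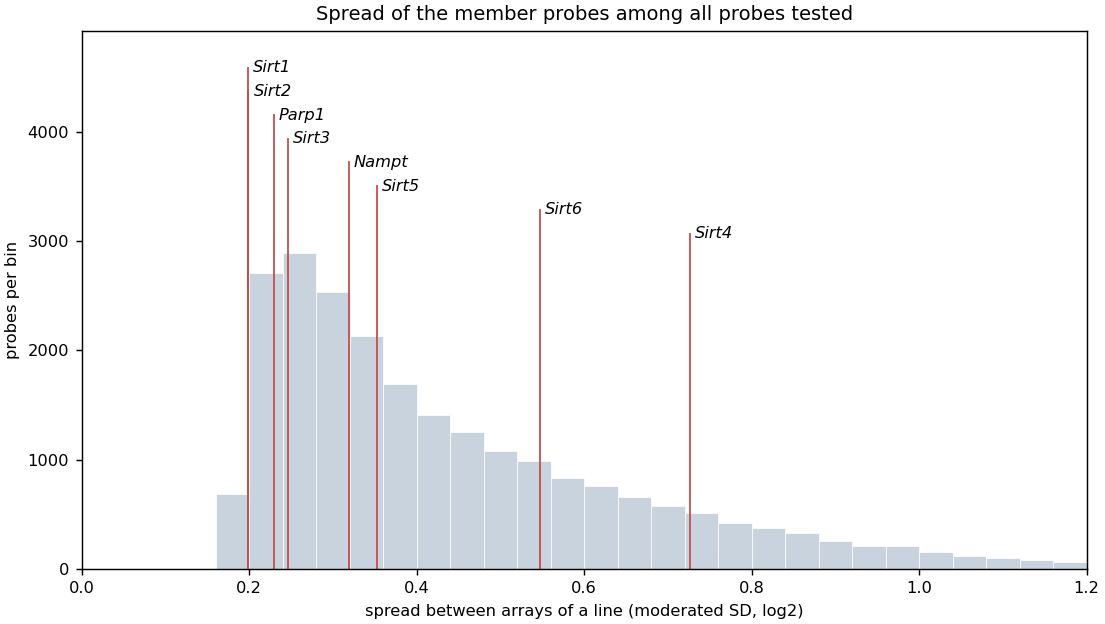
Histogram of the spread between arrays of a line (moderated SD of the log2 ratio, horizontal axis) over all probes tested, with the number of probes per bin on the vertical axis and red lines at the 8 members. Sirt1 and Sirt2 stand at the narrow end and Sirt4, at 0.726, in the wide tail.

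Across the 14 arrays the members moved together only weakly. With the channel offsets taken out, r over the 28 member pairs ran from -0.505 for Sirt1 with Sirt6 to 0.54 for Sirt5 with Sirt6, with a median of 0.024. Sirt1 and Nampt had r = 0.463 and Sirt1 and Parp1 -0.327. These are descriptions: arrays of a line share its RNA and both lines of a kind share a reference. Among 16608 singly named probes compared, the patterns most like that of Sirt1 were those of Dennd2d (r = 0.938), the G-protein subunit Gng5 (0.91) and Numbl (0.901), and the most opposite was the lysyl oxidase-like gene Loxl2 (-0.929). Dennd2d was at 0.21 in Sir2OE1, -0.47 in Sir2OE2, 0.11 in Sir2KD1 and 0.49 in Sir2KD2, and Loxl2 reached 0.74 in Sir2OE2. Nearest to Nampt were 1110015O18Rik (0.885), 2010003O02Rik (0.877) and Rassf2 (0.872), with the muscle gene Smtn most opposite (-0.885). Nearest to Parp1 were Derl2 (0.921), Adamtsl5 (0.896) and Tubb1 (0.887), with Tcl1 most opposite (-0.894). None of these 12 probes was called in any line, and each was picked for the extreme r it has among the probes compared.

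The wider pathway was read from 6 lists that leave out the members: 126 of 160 listed genes had a singly named probe, 137 probes in all. In Sir2OE1 1 of these probes was called, in Sir2OE2 6, in Sir2KD1 5 and in Sir2KD2 0. As shares these were 0.73%, 4.38%, 3.65% and 0%, close to the all-probe shares given above. In neither kind did both lines call a listed probe to the same side. Every call below assumes the turn. With the values left unturned and no channel offset, 0 of the 16 list calls held and 8 changed side. Arrays of opposite channels then enter with opposite signs, and each probe is centred over them. A call would therefore be lost there in any case, and that fit does not test the calls. With the kinds fitted apart, 5 of 13 held, and those of Ppat, Cdk1 and Gpd1 in Sir2OE2, of Kynu, Prmt1, Sod2 and Ldha in Sir2KD1 and of Ldha between the overexpressing lines were lost. The ratios behind these lost calls were the same as in the main fit. Only the spread, estimated there from fewer arrays, and the adjustment over probes changed. Scaling or weighting the arrays kept 12 of 16 and ended the Sir2KD1 calls of Kynu, Prmt1, Sod2 and Ldha. Without both arrays outside the centring 8 of 16 held, and the same Sir2KD1 calls were lost with those of Ctbp2 in Sir2OE1, Ldha between the overexpressing lines and Idh2 and Gpd1 between the kinds.

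Among genes of NAD synthesis and salvage, 18 of 26 listed were measured by 19 probes. In the lines 3 calls were made, 3.95% of 76 tests, beside 2.2% over all probes. Their median ratio was on the minus side in all 4 lines, from -0.13 to -0.054, beside -0.004 to 0.024 over all probes. Probes lay on both sides in each line: of the 19, 3 were on the plus side in Sir2OE1, 9 in Sir2OE2 and 7 in each knockdown line. Kynu, which encodes kynureninase of NAD synthesis from tryptophan, had the highest fitted ratio of any listed probe in a line. Its ratios in Sir2KD1 were 2.65, 2.95 and 1.38, and in Sir2KD2 they were -1.95, 0.75, 0.23 and -0.17. The Sir2KD1 arrays were all above the Sir2KD2 arrays, which spread widely to either side of 0. The fitted ratio was 2.30 ± 0.47 (SE, n = 3) in Sir2KD1, with limma's adjusted p = 0.0246, and -0.29 ± 0.40 in Sir2KD2. The call was lost without slide 1 or slide 2 of Sir2KD1, with ratios from 1.85 to 2.80 over all arrays left out and adjusted p up to 0.236. It was also lost with arrays scaled (1.96, adjusted p = 0.0692), with array weights (2.13, 0.0833), with the kinds fitted apart (0.169) and without both arrays outside the centring (2.02, 0.161). The difference between the knockdown lines was 2.58 ± 0.62, with adjusted p = 0.111.

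Nadk2, the mitochondrial NAD kinase, was called on the minus side in Sir2OE2. Its ratios were -0.97, -0.51, -0.83 and -0.92 in Sir2OE2 and -0.76, -0.21 and -0.50 in Sir2OE1. All 7 arrays were on the minus side, as were 6 of the 7 knockdown arrays. The fitted ratio was -0.81 ± 0.16 (SE, n = 4) in Sir2OE2, with limma's adjusted p = 0.025, and -0.50 ± 0.20 in Sir2OE1, with adjusted p = 0.41. Leaving out any 1 of the 4 Sir2OE2 arrays gave ratios from -0.91 to -0.72 and ended the call, with adjusted p up to 0.172. Ppat, an enzyme of purine synthesis rather than of NAD itself, was at -0.57 ± 0.10 in Sir2OE2 (adjusted p = 0.0125), a call lost without slide 1, 2 or 3 of that line (-0.60 to -0.52, adjusted p up to 0.105). Its other probe was at -0.53 there and was not called.

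The list of other NAD-consuming enzymes also held genes such as Macrod1, Macrod2 and Parg, whose proteins remove ADP-ribose rather than spend NAD. Of this list, 17 of 28 genes were measured by 18 probes and 0 were called in any comparison. An unadjusted p under 0.05 was found in 10 of 72 line tests by limma (13.9%), near the 13.2% over all probes. The probes furthest from 0 on average were Art1, an ADP-ribosyltransferase, and Macrod1, which removes ADP-ribose from proteins. Art1 was at -0.64 ± 0.15 in Sir2OE2, with limma's adjusted p = 0.0569, and at -0.60 ± 0.18 in Sir2KD1, with adjusted p = 0.112. With 1 channel offset for both kinds, without an offset, with arrays scaled or weighted, or without slide 3 or 4 of Sir2KD2, Art1 was called in Sir2OE2, and without an offset it was called in Sir2KD1 too. Macrod1 was on the minus side on all 7 knockdown arrays, at -0.61 ± 0.15 in Sir2KD1 (adjusted p = 0.0567) and -0.46 ± 0.13 in Sir2KD2 (adjusted p = 0.134). Without slide 2 of Sir2KD1 its ratio there was -0.81, a call with adjusted p = 0.0245.

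The regulators of Sirt1 had 5 calls in 128 line tests, on 32 probes of 25 measured genes. That share, 3.91%, is near the 2.2% of line tests called over all probes. Ctbp2, a corepressor that senses NADH, was on the minus side in Sir2OE1 and on the plus side in both knockdown lines. Its ratios were -1.14, -1.11 and -1.44 in Sir2OE1 and -0.030, -0.27, 0.004 and 0.004 in Sir2OE2. In Sir2KD1 they were 1.45, 1.93 and 2.44, and in Sir2KD2 they were 0.92, 1.14, 0.80 and 0.27. The 4 lines did not overlap: Sir2OE1 was lowest, then Sir2OE2 near 0, then Sir2KD2, then Sir2KD1.

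The fitted Ctbp2 ratio was -1.24 ± 0.21 (SE, n = 3) in Sir2OE1, where limma's adjusted p was 0.0191, and in Sir2OE2 -0.072 ± 0.18 (SE, n = 4). It was 1.94 ± 0.21 (SE, n = 3) in Sir2KD1, with adjusted p = 5.99e-04, and 0.78 ± 0.18 (SE, n = 4) in Sir2KD2, with adjusted p = 0.0659. The Sir2KD2 value became a call without slide 1 or 3 of Sir2KD1 (0.78 each, adjusted p = 0.0257 and 0.0437) or slide 4 of Sir2KD2 (1.00, adjusted p = 0.0468). Overexpression minus knockdown was -2.01 ± 0.19, with adjusted p = 2.68e-04. The calls in Sir2KD1 and between the kinds held without any 1 of the 14 arrays. The call in Sir2OE1 was lost without any 1 of its 3 arrays, with ratios from -1.29 to -1.05 and adjusted p up to 0.219. With the line as the replicate the difference between the kinds was not called (limma's adjusted p = 0.588). With the line as a random block it was called, in a fit that treated arrays almost as replicates of the kind.

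The other genes called in this list had a call in 1 line each. Prmt1, an arginine methyltransferase, was at 1.27 ± 0.25 (SE, n = 3) in Sir2KD1, with limma's adjusted p = 0.0183, from arrays at 1.67, 1.07 and 1.05. It was at 0.78 ± 0.21 in Sir2KD2 and 0.76 ± 0.25 in Sir2OE1, both uncalled, and its Sir2KD1 call was lost without any 1 of that line's arrays (0.90 to 1.37, adjusted p up to 0.238). Scaled arrays (adjusted p = 0.061), array weights (0.0771), the kinds fitted apart (0.102) and leaving out both arrays outside the centring (0.071) ended it too. The kinase Cdk1, which phosphorylates SIRT1, was at 0.79 ± 0.13 in Sir2OE2 (adjusted p = 0.00716) and 0.08 ± 0.15 in Sir2OE1. That call was lost without slide 1 or slide 2 of Sir2OE2, with ratios from 0.69 to 0.89 over all arrays left out and adjusted p up to 0.0699. Clock was at 0.69 ± 0.10 in Sir2OE2 (adjusted p = 0.00362), a call that held without any 1 array. It was at 0.42 ± 0.12 in Sir2KD1 (adjusted p = 0.0878), 0.11 in Sir2OE1 and -0.044 in Sir2KD2. A relation between the ratios of Clock and Sirt1 was not tested. The gene of Clock's partner, Bmal1, was not analysed here.

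**Figure D4:**
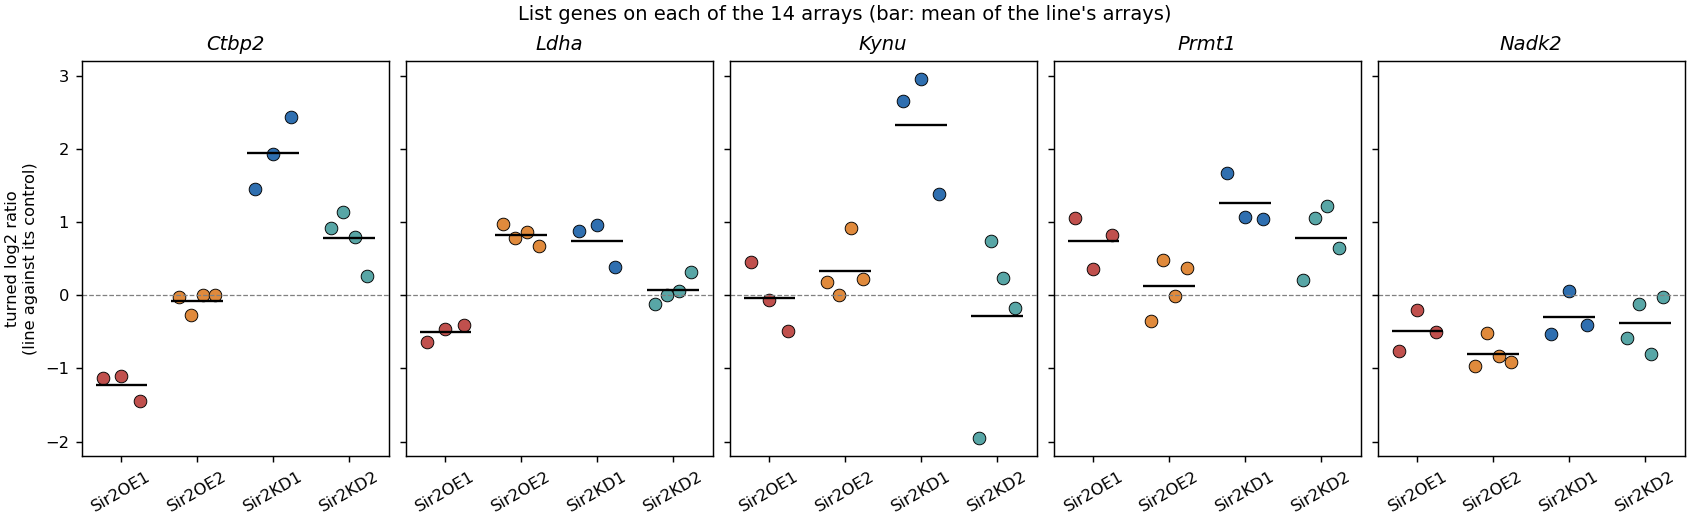
Turned log2 ratio of 5 list genes on each of the 14 arrays (dots), by line, with bars at the mean of the line's arrays. Ctbp2 is lowest in Sir2OE1 and highest in Sir2KD1, and Ldha is on opposite sides in Sir2OE1 and Sir2OE2.

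The NADH shuttle and redox list, 26 of 26 genes on 28 probes, had 3 line calls, 2 of them in Ldha. That is 2.68% of its line tests, beside 2.2% over all probes. Lactate dehydrogenase A turns pyruvate and NADH into lactate and NAD and is kept low in normal beta cells. Its ratios were -0.64, -0.46 and -0.41 in Sir2OE1 and 0.98, 0.79, 0.87 and 0.67 in Sir2OE2. The lines made with the same retrovirus were thus on opposite sides on every array. In Sir2KD1 they were 0.88, 0.95 and 0.39, and in Sir2KD2 they were -0.12, 0.006, 0.064 and 0.32. Sir2KD1 was on the plus side throughout, and Sir2KD2 was near 0.

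The fitted Ldha ratio was -0.51 ± 0.15 (SE, n = 3) in Sir2OE1, where limma's adjusted p was 0.203, and in Sir2OE2 0.82 ± 0.12 (SE, n = 4), where it was 0.0044. Their difference was -1.33 ± 0.19, with adjusted p = 0.0199. The Sir2OE2 call held without any 1 array, while the difference lost its call without any 1 of slides 1 to 3 of either overexpressing line (-1.43 to -1.26, adjusted p up to 0.114). In Sir2KD1 the ratio was 0.73 ± 0.15 (adjusted p = 0.0225), lost without slide 1 or slide 2 of that line (0.55 to 0.92, adjusted p up to 0.251). That call was also lost with arrays scaled (0.62, adjusted p = 0.0685), with array weights (0.66, 0.078), with the kinds fitted apart (0.143) and without both arrays outside the centring (0.148). Gpd1, the cytosolic enzyme of the glycerol phosphate shuttle, was on the minus side on all 7 overexpression arrays. It was at -0.57 ± 0.10 in Sir2OE2 (adjusted p = 0.0105) and -0.46 ± 0.12 in Sir2OE1 (adjusted p = 0.131). Its Sir2OE2 call was lost without slide 1, 2 or 3 of that line (-0.63 to -0.52, adjusted p up to 0.0958).

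Genes listed as targets of the mitochondrial sirtuins were mostly level. The list, which also held the non-mitochondrial Lcat, had 25 of 29 genes on 25 probes. It had 1 line call (1% of line tests, beside 2.2% over all probes). Sod2, the mitochondrial superoxide dismutase, was at -0.52 ± 0.12 (SE, n = 3) in Sir2KD1, with limma's adjusted p = 0.0364, and on the minus side on all 14 arrays. Its call was lost without any 1 of the 3 Sir2KD1 arrays, slide 2 of Sir2OE1, slide 1 or 2 of Sir2OE2, or slide 1, 2 or 4 of Sir2KD2 (-0.60 to -0.48, adjusted p up to 0.139). It did not hold with arrays scaled (adjusted p = 0.0974), with array weights (0.0936), with the kinds fitted apart (0.147) or without both arrays outside the centring (0.174). Idh2, which makes mitochondrial NADPH, was called for overexpression minus knockdown, at -0.60 ± 0.12 with adjusted p = 0.0205. It was at -0.40 in Sir2OE2, -0.13 in Sir2OE1, 0.22 in Sir2KD1 and 0.45 in Sir2KD2, none of them called. That difference lost its call without slide 2 or 3 of Sir2OE1, slide 3 of Sir2OE2 or slide 1 of Sir2KD1 (-0.64 to -0.52, adjusted p up to 0.0903). Gpd1 was also called for this difference, at -0.57 ± 0.11 with adjusted p = 0.0202. That call was lost without slide 3 of Sir2OE1, slide 1 or 3 of Sir2OE2, slide 1 or 3 of Sir2KD1, or slide 1 or 2 of Sir2KD2 (-0.61 to -0.50, adjusted p up to 0.0752). With the line as the replicate, neither Idh2 (limma's adjusted p = 0.619) nor Gpd1 (0.613) was called for this difference. Both were called with the line as a random block, which treated arrays almost as replicates of the kind.

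The zinc-dependent histone deacetylases, listed with acetyltransferases and corepressors, had 15 of 21 genes measured and 0 calls, with 10 of 60 line tests (16.7%) at an unadjusted p under 0.05, beside 13.2% over all probes. Hdac2 was on the plus side on all 7 overexpression arrays, at 0.31 ± 0.13 in Sir2OE1 (limma's adjusted p = 0.468) and 0.37 ± 0.11 in Sir2OE2 (adjusted p = 0.129). The acetyltransferase Kat2a was between 0.10 in Sir2KD2 and 0.40 in Sir2KD1.

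**Figure D5:**
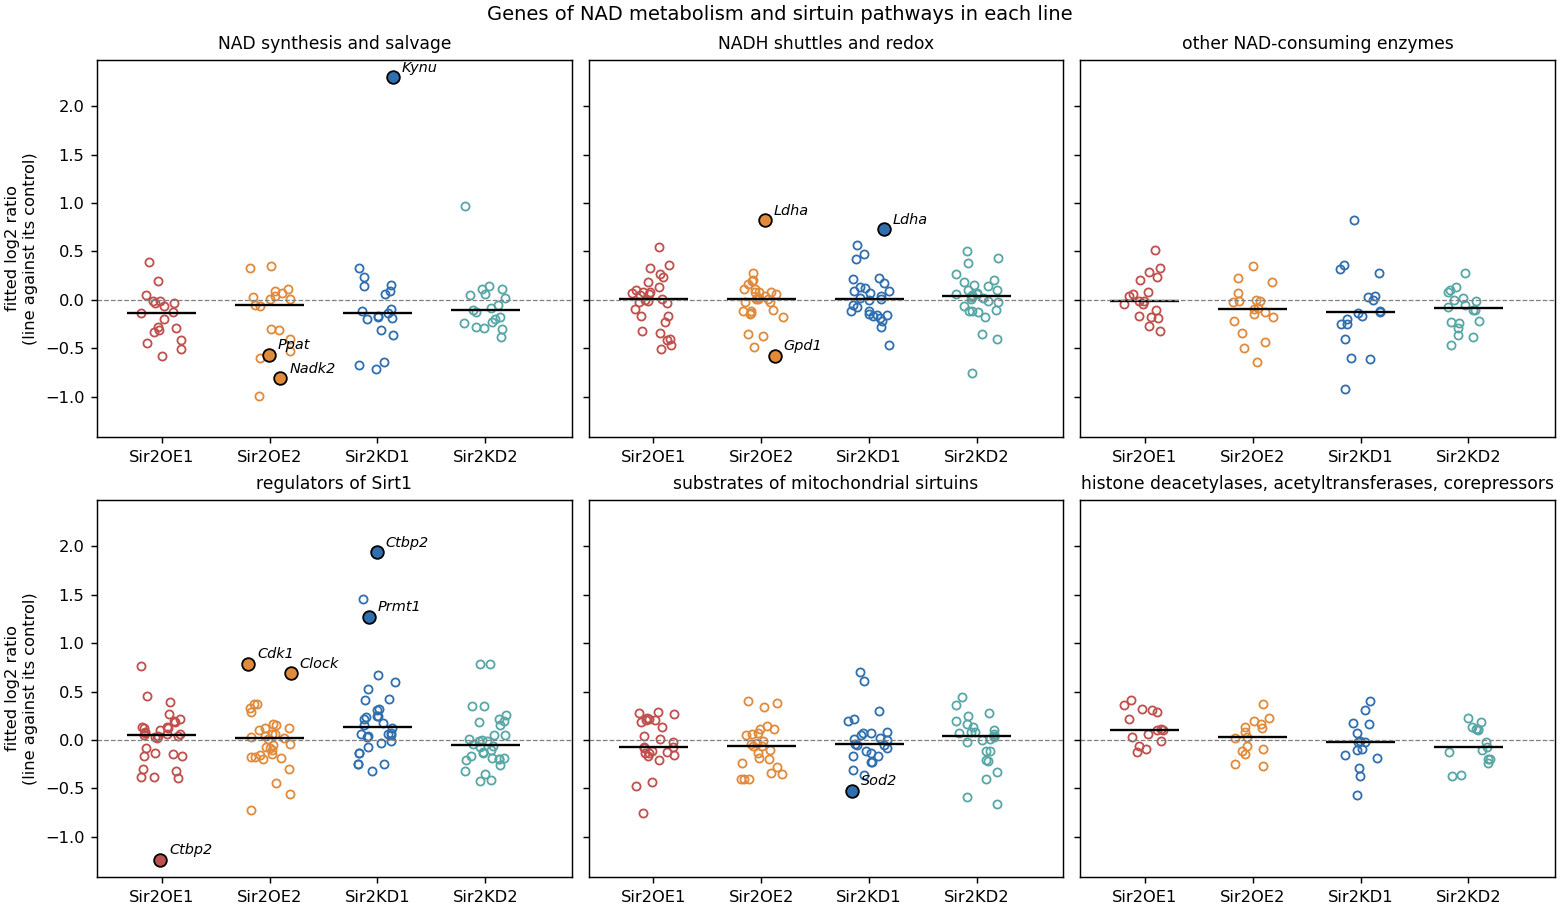
Fitted log2 ratios of the listed genes in each line, 1 panel per list, with open circles for probes not called, filled and named circles for calls, and bars at the list's median. The calls are few, Ctbp2 and Ldha have calls in 2 lines each, and the list medians lie between -0.134 and 0.14.

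Ratios carry no level, so the cell type could be checked only for changes. Of 12 measured beta-cell markers, 13 of 48 line tests (27.1%) were calls, to both sides in 3 lines, beside 2.2% over all probes. The 5 genes behind these calls are named here after their values were seen. Slc2a2, the beta-cell glucose transporter, was called on the minus side in all 4 lines, from -2.08 in Sir2KD1 to -0.89 in Sir2KD2. Pcsk1, a prohormone convertase that processes proinsulin, was on the plus side on all 14 arrays and called in Sir2OE1 (0.78), Sir2OE2 (0.78) and Sir2KD2 (0.76). The islet transcription factor gene Isl1 was called on the plus side in Sir2OE1 (0.69) and on the minus side in Sir2KD1 (-0.78) and Sir2KD2 (-0.59). The transcription factor genes Neurod1 (-0.50 in Sir2OE2 and -0.47 in Sir2KD1) and Pdx1 (-0.77 in Sir2KD1) had the other calls. Of the uncalled markers, Kcnj11 and Nkx6-1 were on the plus side in all 4 lines and Ins2 on the minus side. Abcc8, G6pc2, Iapp and Chga had fitted ratios on both sides. Those of G6pc2, Iapp and Chga were almost the same in each line, at -0.412 for each in Sir2OE2, so they do not count as separate readings. Up to 4 of the 12 marker probes belong to a set with a shared fixed ratio on the arrays of a kind, and they were kept in the 48 tests. Markers of other islet cells, mesenchyme and immune cells had 0 line calls by limma, with 3 of 20, 1 of 24 and 2 of 20 tests at an unadjusted p under 0.05 (15%, 4.17% and 10%), beside 13.2% over all probes. Exocrine and duct markers had 5 calls in 20 tests (25%), in Krt7 (0.93 in Sir2KD1 and 1.29 in Sir2KD2), Krt19 (-0.58 in Sir2OE1 and -0.69 in Sir2OE2) and Prss1 (-0.75 in Sir2KD1). Unlike the list calls, the marker calls were not refitted under the alternatives, so whether they hold there is not known. The part of these marker differences in the ratios above was not tested. Fewer cells of a type and less RNA per cell cannot be told apart in such samples.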

How the data were processed

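The deposited values are log2 ratios between the channels of 14 two-colour arrays. The labels used here name no scanner software, background correction or normalization. The deposited log2 values of each probe sum to 0 over 6 of the 7 arrays of each kind, which hold the line in each channel 3 times. Slide 2 of Sir2OE1 and slide 2 of Sir2KD1 lie outside these sums. A channel offset for each kind in the fit absorbs this centring. After the turn by channel, lmFit and eBayes of limma 3.58.1 (R 4.3.3) fitted 4 line coefficients, leaving 8 residual degrees of freedom. Each probe has 1 residual spread, estimated over all 14 arrays and moderated over all probes, and every SE is built from it. The n given with an SE counts the arrays of that line. The Benjamini-Hochberg adjustment ran over the 23230 probes that could be fitted in all lines. The script was tested on simulated data. Of 23232 probes, 16885 had 1 symbol, 143 several and 6204 none in the platform annotation of 2007. Symbols were updated for 16205. Named were all members, every called list probe or the 2 furthest on average where a list had none, the 3 probes most like Sirt1, Nampt or Parp1 and the most opposite, and the called markers, chosen after their values were seen. Members and lists were chosen with earlier results of these data known. Arrays have no read depth, and precision is limited by their number. Alternatives covered the channel offset, turn, scaling, filters, weights, blocks and each array left out.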

Additional observations from a re-analysis of the deposited data

Results flagged for a closer look

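On 3 of 46 sets of 4 arrays, 1 array stood apart from the other 3, where chance gives about 1 in 20. Sirt5 was at 0.459 on slide 4 of Sir2OE2 beside 0.058 to 0.126 on the others. Parp1 was at -0.119 on slide 4 of Sir2KD2 beside 0.102 to 0.131. Ctbp2 was at -0.268 on slide 2 of Sir2OE2 beside -0.03 to 0.004.

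Differences between groups passed limma's test for 4 list probes and 0 members. Overexpression minus knockdown was -2.014 for Ctbp2, -0.598 for Idh2 and -0.57 for Gpd1, and Sir2OE1 minus Sir2OE2 was -1.33 for Ldha. With the line as the replicate, none of these differences between the kinds was called. In that fit 0 of all probes were called for the mean of either kind. With the line as a random block all 3 were called, in a fit that treated arrays almost as replicates of the kind. In other pairs every array of one line lay opposite to every array of the other, and these differences were not tested. How many of all probes separate in this way was not counted, so these pairs have no background beside them. Sir2OE2 minus Sir2KD2 was -0.458 for Sirt1, 0.922 for Cdk1 and -0.85 for Idh2. Sir2OE1 minus Sir2KD1 was -3.174 for Ctbp2 and -1.236 for Ldha. Sir2OE1 minus Sir2KD2 was -2.018 for Ctbp2, and Sir2OE2 minus Sir2KD1 was -0.619 for Idh2.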

How the results depend on the processing

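Of 1464 member values under 28 alternatives, 1367 kept their side and their side of the threshold and 95 changed side while uncalled. The other 2 became calls: Sirt1 in Sir2OE2 without a channel offset and with array weights, which makes 1 member called in that line under each. Some alternatives cannot move a given fitted ratio: that of Sirt1 in Sir2OE2 stayed at -0.333 without any 1 array of another line. The number of values that kept their side therefore overstates how far they were put to the test. Unturned and with no channel offset, these list values changed side: Nadk2 in Sir2OE2 0.067; Kynu -0.561, Prmt1 -0.148, Ctbp2 -0.974, Sod2 0.239 and Ldha -0.152 in Sir2KD1; and Ctbp2 0.191 and Idh2 0.014 for overexpression minus knockdown. By construction, arrays of opposite channels then enter with opposite signs, so these changes of side do not test the list values. Leaving out 1 array gave 47 to 222 calls over all probes in Sir2OE1 (main 247), 317 to 675 in Sir2OE2 (653), 523 to 835 in Sir2KD1 (833) and 149 to 325 in Sir2KD2 (312), with 0 members called. For Sir2OE1 minus Sir2OE2, Sir2KD1 minus Sir2KD2 and overexpression minus knockdown these counts were 18 to 69 (75), 86 to 248 (160) and 421 to 538 (617). Other settings gave 0 to 628, 0 to 3266, 15 to 1867 and 0 to 810 in the lines, and 0 to 282, 1 to 576 and 0 to 1317 for the differences. Slide numbers are shared by the lines and are not said to pair arrays: over 19 same-numbered pairs residual r ran from -0.389 to 0.237, above 0.1 in 1. With slide number as a replicate block, 0 members were called and 7 of 16 list calls held, and the all-probe counts were 77, 428, 180 and 181 in the lines and 10, 37 and 260 for the differences. Leaving out both arrays outside the centring, an alternative chosen after seeing the data, kept 8 of 16 list calls and 0 members called. A fit that took the line as a random block called 0 members for either kind (limma's lowest adjusted p 0.552). Over all probes it called 464 for overexpression and 567 for knockdown. Its correlation between arrays of a line was 0.0194, so it treated arrays almost as replicates of the kind. Treating lines as the replicates also left 0 members called (limma's lowest adjusted p 0.627). There 0 of all probes were called for either kind, so the count of 0 members cannot show that the members were level.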
